A study of Mus musculus with 12 samples.

Results

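The 2 ends of basophil maturation in the bone marrow (BM) were compared: basophil progenitors (BaPs) and BM mature basophils, with 3 bulk RNA-seq libraries each, which were 6 of the 12 libraries of the series. The samples were chosen by their labels alone, and every one of the 15083 genes that passed a count filter, of 32227 in the table, entered the comparison. The study sorted cells of wild-type C57BL/6J mice by flow cytometry, without treatment, and each library held the RNA of cells pooled from 4 animals, so that replicate error here is the spread between pools. BaPs were CD200R3+ c-Kit- CLEC12A-high CD34+ BM cells, and BM mature basophils were CD34- CLEC12A-low CD9-high cells. The series also held CD34- CLEC12A-high CD9-low pre-basophils of the BM, which lie between these stages and are labelled immature basophils, and mature basophils of the spleen. The age of the animals was not given in the sources used here, and both groups are defined by surface proteins, not by a reporter or a lineage trace.

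Basophils are granulocytes that arise in the BM, carry the high-affinity IgE receptor and store histamine and proteases in cytoplasmic granules. The study places BaPs downstream of granulocyte-monocyte progenitors. It also cites single-cell data that couple the basophil path to that of erythrocytes and megakaryocytes. Basophil progenitors divide, whereas mature basophils leave the cell cycle and enter the blood. Mature basophils answer to antigen bound by IgE, to complement fragments and to cytokines with degranulation and secretion of cytokines and chemokines. In bulk RNA, fewer cells of a type and less RNA per cell cannot be told apart.

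BaP replicate 3 stood apart from the other 11 libraries. It had 26743 genes with at least 1 read, against 21911 to 24704 in the others, and 3.53% of its reads came from mitochondrial genes, against 1.0% to 1.82%. Library totals ran from 3596108 to 8151030 reads, and levels are given below as CPM, the reads of a gene scaled to a fixed library total, with edgeR's TMM factors for composition, always in the order of replicates 1, 2 and 3. A count of 0 allows up to 3 reads, which was 0.290 to 0.955 CPM depending on the library. Markers of other blood cells were summed per library. The 15 erythroid markers added up to 80.0, 75.9 and 2539.6 CPM in BaPs and to 209 to 227 CPM in BM mature basophils. The 20 markers of T and natural killer (NK) cells added up to 99.9, 100.7 and 1646 CPM against 353 to 436 CPM, and the 15 B cell markers to 44.0, 44.1 and 339.6 CPM against 54.1 to 76.8 CPM. In each of these lists BaP replicate 3 was far above the other 5 libraries, and BaP replicates 1 and 2 were below all 3 BM mature libraries. The 15 neutrophil markers came to 198, 775 and 2248 CPM in BaPs against 261 to 297 CPM, so that BaP replicate 2 was also above the BM mature range and BaP replicate 1 below it. Most of the BM mature sum was the chemokine receptor gene Cxcr2, at 158, 223 and 184 CPM there against 26.0, 33.2 and 34.9 CPM in BaPs. The low place of BaP replicate 1 in this sum rested on that gene. BaP replicate 3 held the highest level of the 6 libraries for 14 of 15 neutrophil, 14 of 15 B cell, 18 of 20 T and NK cell and 11 of 15 erythroid markers. The 9 mast cell markers added up to 187, 211 and 531 CPM in BaPs against 452 to 495 CPM, so that BaP replicate 3 was above the BM mature range and the other BaP libraries below it. These sums were mostly 2 genes. The granzyme gene Gzma, at 3.11, 1.18 and 342 against 10.5, 13.3 and 28.6 CPM, gave most of that of BaP replicate 3. The integrin gene Itgb7, at 161, 184 and 161 against 437, 461 and 456 CPM, gave most of those of the other 5 libraries. BaP replicate 3 held the highest level of the 6 libraries for 2 of the 9 markers, and Mcpt4 and Mrgprx2 had no read in any of them.

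**Figure D1:**
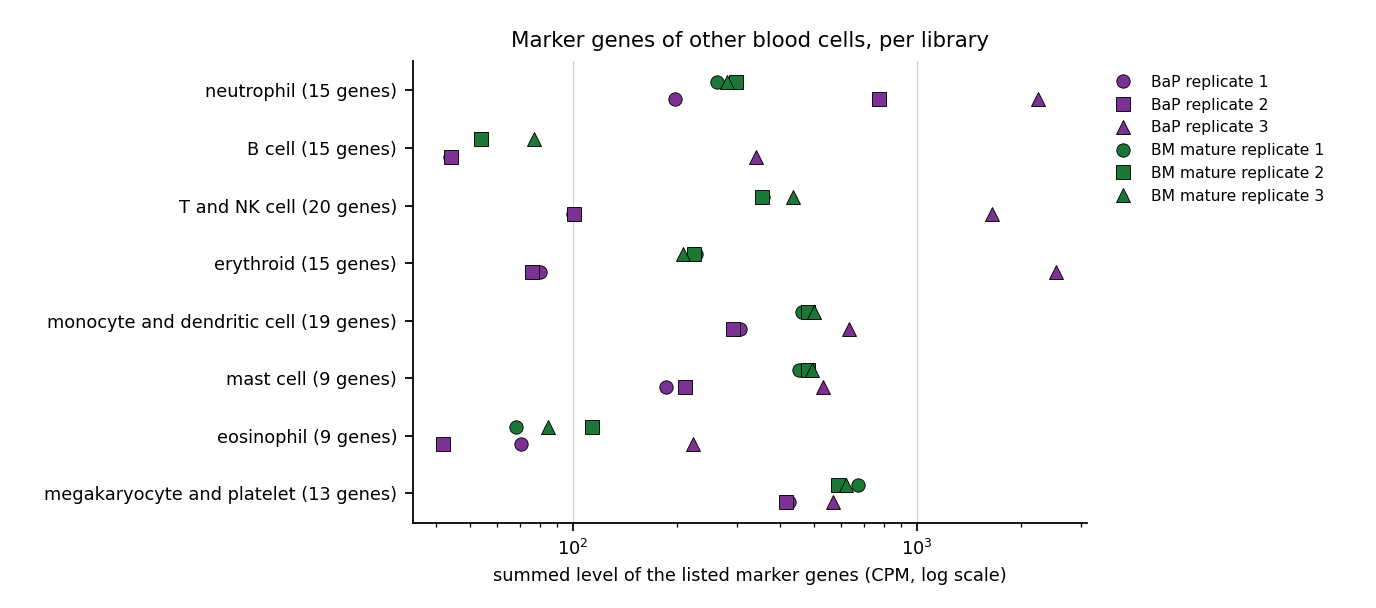
Summed level (CPM, log axis) of the marker genes of 8 other blood cell types in each BaP (purple) and BM mature (green) library, with a symbol per replicate. BaP replicate 3 (purple triangle) is to the right of BaP replicates 1 and 2 in every list, and furthest for erythroid and for T and NK cell markers.

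Genes of red cells and of lymphocytes changed sign between fits with and without BaP replicate 3. Hbb-bs was at 0.956, 0.943 and 983 against 72.6, 72.6 and 82.0 CPM, and its log2 fold change was 2.13 (adjusted p = 0.230) with 3 BaP libraries and -6.27 (adjusted p = 1.5e-05) with BaP replicates 1 and 2 alone. The NK cell receptor gene Klrk1, at 0.717, 0.707 and 166 against 13, 8.26 and 16.8 CPM, had log2 fold changes of 2.18 with it and -4.12 without it. Both genes were chosen after their values were seen. Genes of the basophil lineage were lower in that library than in the other BaP libraries. The IgE receptor gene Fcer1a was at 1423, 1291 and 537 CPM in BaPs against 934, 917 and 856 CPM in BM mature basophils. Of the lineage genes examined, the level in BaP replicate 3 was 0.362 (the protease gene Prss34) to 0.522 (the transcription factor gene Gata2) times the mean of BaP replicates 1 and 2. The part that RNA of other cells has in the results was not tested, and the counts below are therefore given with and without BaP replicate 3, while p-values measure only the spread between these pools.

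Of the 15083 genes tested, 6785 (45.0%) were called at an adjusted p under 0.05 (edgeR, quasi-likelihood), 3820 of them higher and 2965 lower in BaPs, and 3727 of these differed by at least 2-fold. Without BaP replicate 3, 7549 of 14723 genes passed. The fits with and without it shared 3472 genes higher in BaPs (23.0% of those tested) and 2686 genes lower in BaPs (17.8%), and these are the genes called rose or fell from here on. A further 294 genes that were higher and 265 that were lower with all 3 libraries did not pass without BaP replicate 3, 53 and 14 more were not tested there, and 1 gene passed in both fits with opposite signs. The 3 BaP and the 3 BM mature libraries did not overlap for 7843 genes (52.0%). Counts of list members that rose or fell are to be read below against these 23.0% and 17.8%, and statements of no overlap against 52.0%. The median log2 fold change (BaP over BM mature) of all tested genes was 0.05, and -0.01 without BaP replicate 3. The split depended on the scaling. With library size alone in place of TMM the median was 0.48 and 82.9% of calls were higher in BaPs, against 56.3% with TMM. List medians with library size alone are therefore to be read against 0.48, and for some lists the median relative to all genes is given.

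**Figure D2:**
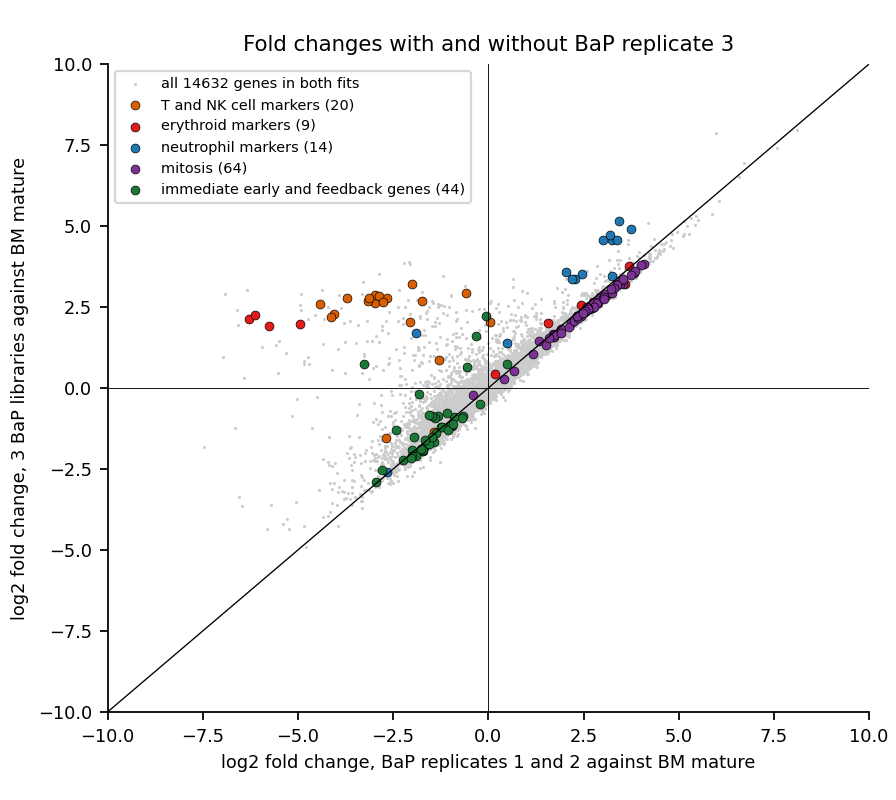
Log2 fold change between BaPs and BM mature basophils with 3 BaP libraries (vertical) against that with BaP replicates 1 and 2 (horizontal) for 14632 genes, with the diagonal as a line. Mitosis and most immediate early genes lie on or near the diagonal, neutrophil markers lie above it, and 4 haemoglobin genes and most T and NK cell markers are positive on the vertical and negative on the horizontal axis.

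The genes of the sorted proteins CD34, CLEC12A and CD9 followed the gates, and they are read as a check of the labels and not as a result. The gates given above use CD34 and CLEC12A for both groups, and CD9 for BM mature basophils only. The paper reports the CLEC12A-high CD9-low staining of CD34+ BaPs as an observation. Cd34, the stem cell glycoprotein that defines BaPs here, was at 21.0, 24.5 and 35.6 CPM in BaPs against 7.64, 5.51 and 8.99 CPM in BM mature basophils, and the groups did not overlap. Clec12a, an inhibitory lectin receptor, was at 322, 327 and 129 against 39.1, 37.1 and 30.7 CPM, without overlap. The tetraspanin gene Cd9 was at 244, 239 and 188 against 631, 539 and 619 CPM, lower in every BaP library. Cd200r3, the activating receptor used to find basophils in both groups, was present throughout but lower in BaPs, at 542, 584 and 294 against 1088, 1154 and 1111 CPM. Kit, the receptor for stem cell factor, was at 11.5, 7.07 and 31.8 against 0.318, 1.0 and 0.187 CPM, although BaPs were gated as c-Kit-. Its log2 fold change was 5.09 ± 0.68 SE (adjusted p = 4.04e-05), and 4.20 ± 0.52, adjusted p = 2.85e-06 without BaP replicate 3, the BaP library with the highest level, or 6.06 without BM mature replicate 2, the BM mature library with the highest level. Itga2, for the integrin chain CD49b, a surface marker of basophils and NK cells, fell from 157, 201 and 161 CPM in BM mature basophils to 32.5, 42.0 and 63.1 CPM in BaPs (log2 fold change -1.90 ± 0.22 SE, adjusted p = 1.26e-05). Fcer1a did not pass with all libraries (log2 fold change 0.26 ± 0.25 SE, adjusted p = 0.418) and was higher in BaPs without BaP replicate 3 (0.60 ± 0.11, adjusted p = 0.000163).

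**Figure D3:**
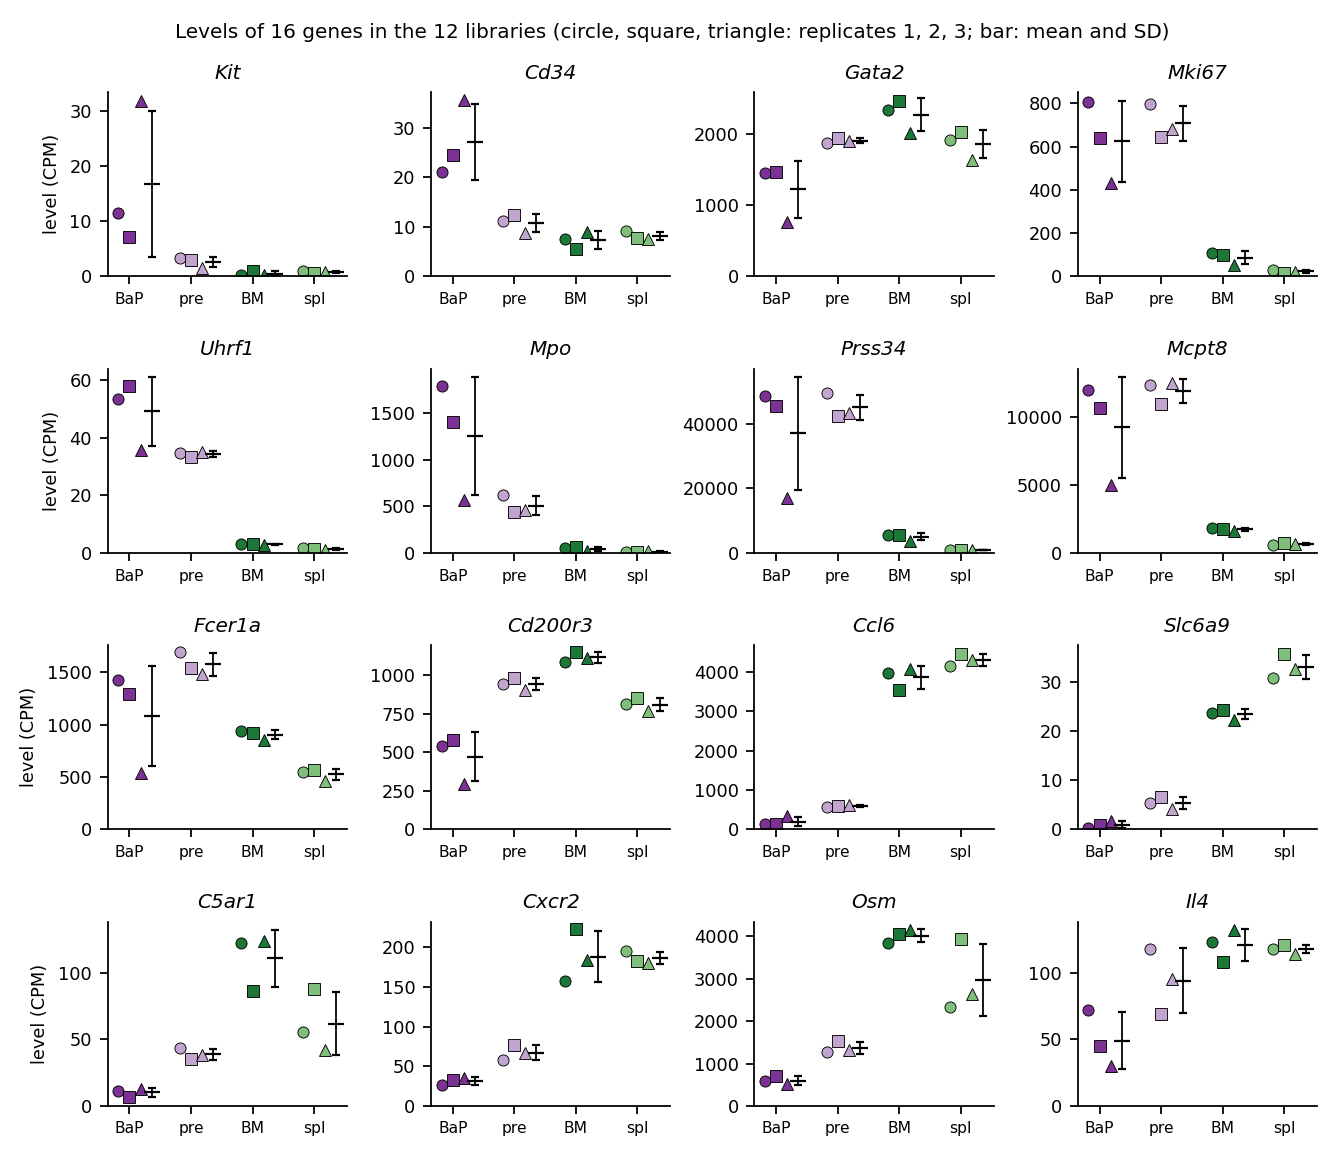
Level (CPM, linear axes from 0) of 16 genes in BaPs, pre-basophils (pre), BM mature (BM) and spleen mature (spl) basophils, with 1 symbol per library and the mean and SD of 3 libraries as a bar. Prss34, Mcpt8 and Mki67 are near BaP levels in pre-basophils and lower in BM mature basophils, whereas the means of Ccl6, Slc6a9, C5ar1, Cxcr2 and Osm are higher at each later BM stage.

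Of 25 tested genes of stem and progenitor cells, 14 rose and 4 fell in BaPs, with a median log2 fold change of 1.75, or 1.0 without BaP replicate 3, against 0.05 over all genes. Hoxa9, a homeobox gene of early haematopoiesis, was at 5.02, 5.66 and 8.13 against 0.318, 0 and 0.374 CPM, which is 129 reads over the 3 BaP libraries and 3 over the 3 BM mature libraries, a ratio of levels of 28.6 with a 95% counting interval of 9.57 to 141 (edgeR adjusted p = 5.47e-05). Sox4, a transcription factor gene of immature blood cells, was at 81.7, 84.6 and 88.1 against 7.32, 6.51 and 8.24 CPM (log2 fold change 3.52 ± 0.23 SE, adjusted p = 1.3e-07, and 3.49 ± 0.23, adjusted p = 1.33e-09 without BaP replicate 3). The 3 BaP libraries gave nearly the same level of Sox4, and the groups were far apart. Cdk6, the kinase that works with D-type cyclins and is high in progenitors, was at 409, 422 and 297 against 67.5, 72.9 and 64.0 CPM, a 5.52-fold difference. Plac8 was at 2367, 2462 and 942 against 1174, 1239 and 1238 CPM, so that BaP replicate 3 lay below the BM mature libraries, and its call rested on the setting: adjusted p was 0.0433 with all libraries, 5.85e-08 without BaP replicate 3, 0.178 without BaP replicate 2, 0.156 without BaP replicate 1 and 0.0508 with a replicate block.

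Among 48 transcription factor genes of the blood lineages, 9 rose and 14 fell in BaPs, and the list had no common direction (median 0.06, and -0.37 without BaP replicate 3). Besides Hoxa9 and Sox4, the genes that rose included Myb and Mitf, which were chosen after their values were seen. Myb, needed for proliferating progenitors, was at 175, 171 and 123 against 17.5, 20.03 and 11.6 CPM (log2 fold change 3.27 ± 0.25 SE, adjusted p = 4.07e-07, and 3.44 ± 0.21, adjusted p = 3.31e-10 without BaP replicate 3). Mitf, the transcription factor of mast cells and melanocytes, was low in both groups at 4.30, 2.83 and 3.29 against 0, 0.501 and 0.374 CPM (log2 fold change 3.35 ± 0.60 SE, adjusted p = 0.000484). Gata2, which basophils and mast cells need to form, was abundant at all stages and fell in BaPs, at 1443, 1459 and 757 against 2324, 2455 and 2006 CPM (log2 fold change -0.89 ± 0.20 SE, adjusted p = 0.00236, and -0.63 ± 0.11, adjusted p = 0.000148 without BaP replicate 3). Nfil3, a basic leucine zipper factor gene also chosen after its values were seen, fell from 219, 136 and 258 CPM in BM mature basophils to 39.9, 36.8 and 46.4 CPM in BaPs. Klf2, a zinc finger factor gene linked to quiescence, was at 1614, 484 and 1131 against 2548, 719.6 and 2691 CPM, low in replicate 2 of both groups, and did not pass (log2 fold change -0.88 ± 0.53 SE, adjusted p = 0.195) unless the replicate number was a block (adjusted p = 0.00764).

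Genes of primary (azurophil) granules, which granulocyte-monocyte progenitors and promyelocytes make, were among the largest differences. Of 16 tested, 10 rose in BaPs and 1 fell, with a median of 2.86, or 2.10 without BaP replicate 3. Mpo, the myeloperoxidase gene, was at 1792, 1402 and 562 CPM in BaPs against 57.9, 61.1 and 22.3 CPM in BM mature basophils (log2 fold change 4.75 ± 0.43 SE, adjusted p = 1.75e-06, and 5.13 ± 0.28, adjusted p = 8.98e-11 without BaP replicate 3). Ctsg, which encodes the protease cathepsin G, was at 2489, 2135 and 767 against 140.0, 138 and 75.6 CPM, a 15.3-fold difference, or 19.9-fold without BaP replicate 3. Both genes stood higher in each BaP library than in any BM mature library and were lowest of the BaP libraries in replicate 3. Prtn3, for proteinase 3, was at 46.6, 49.3 and 36.5 against 1.27, 2.50 and 0.936 CPM. Ms4a3, a membrane protein gene of granulocyte-monocyte progenitors and their progeny, was at 449, 405 and 157 against 19.7, 26.5 and 8.61 CPM, so that these groups did not overlap either. Elane, the neutrophil elastase gene, was at 10.3, 12.7 and 8.81 against 0.318, 0.250 and 0.187 CPM, which is 188 reads over the 3 BaP libraries and 3 over the 3 BM mature libraries, a ratio of levels of 41.7 with a 95% counting interval of 14 to 204 (edgeR adjusted p = 1.63e-06). Clec11a, which encodes a secreted growth factor, had 66 reads over the 3 BaP libraries and 1 over the 3 BM mature libraries, a ratio of levels of 43.9 with a 95% counting interval of 7.61 to 1760.3 (adjusted p = 0.00114). Srgn, the core protein of the proteoglycan that binds granule proteases and histamine, went the other way, at 4293, 3563 and 2249 against 6973, 4676 and 7130.2 CPM (log2 fold change -0.89 ± 0.22 SE, adjusted p = 0.00418).

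Genes of secondary neutrophil granules and of calprotectin were also higher in BaPs, but unevenly between the pools. Ltf, for lactoferrin, was at 7.17, 49.3 and 126 against 2.23, 0.751 and 3.0 CPM (log2 fold change 4.90 ± 1.03 SE, adjusted p = 0.00155, and 3.76 ± 0.91, adjusted p = 0.00210 without BaP replicate 3). Ngp, for a neutrophil granule protein, was at 16, 106 and 401 against 2.55, 5.76 and 10.3 CPM, with a log2 fold change of 4.74, or 3.19 without BaP replicate 3 and 5.35 without BM mature replicate 3. In both genes the BaP libraries differed from each other far more than the BM mature libraries did. Camp, for cathelicidin, was at 9.56, 69.3 and 208 against 2.23, 2.25 and 6.93 CPM, with a log2 fold change of 4.56, or 3.24 without BaP replicate 3 and 5.42 without BM mature replicate 3. S100a8, a calprotectin subunit gene, was at 14.6, 138 and 370.1 against 12.4, 3.76 and 6.93 CPM, with 4.56 and 3.37. All 4 are also among the neutrophil markers summed above, and they ordered the BaP libraries as that sum did, while the part of neutrophil RNA in them was not tested. Of 14 tested neutrophil markers 8 rose and 1 (Cxcr2, described with the adhesion genes) fell in BaPs, 11 were higher with all 3 libraries in edgeR, and 3 were with limma-voom. In the 3 pre-basophil libraries Ngp was at 62.9, 141 and 367 CPM, a spread of the same kind, against 2.55, 5.76 and 10.3 CPM in BM mature basophils. With limma-voom none of the 4 passed, with adjusted p between 0.0529 (S100a8) and 0.0991 (Ltf).

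Several of the basophil's own granule proteases were higher in BaPs. Prss34, for a serine protease made mainly by basophils, was at 48653, 45396 and 17009 CPM in BaPs against 5708, 5689 and 3798 CPM in BM mature basophils (log2 fold change 2.87 ± 0.31 SE, adjusted p = 6.68e-06, and 3.23 ± 0.14, adjusted p = 1.4e-11 without BaP replicate 3). Mcpt8, the serine protease gene used as a basophil marker, was at 11979.7, 10618 and 5008 against 1828, 1738 and 1627 CPM (log2 fold change 2.41 ± 0.25 SE, adjusted p = 4.71e-06, and 2.72 ± 0.12, adjusted p = 1.73e-11 without BaP replicate 3). Cpa3, a carboxypeptidase gene shared with mast cells and chosen after its values were seen, was at 2449, 2135 and 876 against 619, 566 and 548 CPM (log2 fold change 1.66 ± 0.27 SE, adjusted p = 0.000194). Each BaP library exceeded each BM mature library for all 3 genes, by 7.31-fold, 5.32-fold and 3.15-fold on average. Of the 12 tested members of the list, which also held cathepsins and granzymes, 6 rose and 2 fell (median 1.06, and 0.40 without BaP replicate 3). Summed over these 12 genes, BaPs had 66592, 61292 and 24803 CPM, pre-basophils 67016, 57835 and 60317 CPM, BM mature basophils 10267, 9831 and 8055 CPM and spleen mature basophils 3476, 3993 and 4018 CPM, so that the largest gap lay between pre-basophils and BM mature basophils. Prss34 and Mcpt8 made up most of this sum in the BM libraries. The lysosomal protease gene Ctsd was lower in each BaP library, at 338, 357 and 365 against 905, 1046 and 1043 CPM. Ctss, for cathepsin S, was low at 4.30, 1.41 and 13.9 against 0.636, 1.0 and 0.749 CPM and highest in BaP replicate 3 (log2 fold change 3.10 ± 0.80 SE, adjusted p = 0.00635, and 1.81 ± 0.72, adjusted p = 0.0445 without BaP replicate 3), and it did not pass with limma-voom (adjusted p = 0.0640).

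Cell cycle genes were higher in BaPs with few exceptions. Of 61 DNA replication genes 60 rose in BaPs and none fell, and of 64 mitosis genes 62 rose and none fell, against 23.0% rising over all genes. The medians were 2.51 and 2.50, and 2.68 and 2.73 without BaP replicate 3. Mki67, the proliferation antigen gene, was at 804, 638 and 431 CPM in BaPs against 109, 97.9 and 54.1 CPM in BM mature basophils (log2 fold change 2.85 ± 0.27 SE, adjusted p = 2.5e-06, and 3.08 ± 0.21, adjusted p = 1.76e-09 without BaP replicate 3). Top2a, the topoisomerase that untangles sister chromosomes, was at 421, 310.0 and 239 against 44.6, 36.6 and 27 CPM. For both genes BaP replicate 3 was the lowest BaP library and still far above the BM mature range. Ncapg, for a subunit of condensin, was at 48.0, 34.7 and 25.9 against 2.86, 2.75 and 2.25 CPM. Aurka, the mitotic spindle kinase gene, was at 15.3, 14.9 and 8.33 against 0.636, 0.250 and 1.5 CPM, near the floor in the mature libraries. No BaP library overlapped a BM mature library for these 4 genes, which differed by 7.2-fold, 9.04-fold, 13.8-fold and 14.3-fold, although the log2 fold change of Aurka moved from 3.84 to 4.82 without BM mature replicate 3. Only Cdc25c and Pttg1 among the mitosis genes did not pass in both fits.

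Of the DNA replication genes, Gins1, a subunit of the replicative helicase, was at 17.7, 13.9 and 9.30 against 0.636, 0 and 0.562 CPM (log2 fold change 4.99 ± 0.52 SE, adjusted p = 4.7e-06, and 5.23 ± 0.48, adjusted p = 6.68e-08 without BaP replicate 3). Uhrf1, which hands DNA methylation on to the new strand, was at 53.5, 58.0 and 35.6 against 3.18, 3.0 and 2.81 CPM (log2 fold change 4.02 ± 0.23 SE, adjusted p = 3.94e-08, and 4.23 ± 0.19, adjusted p = 1.73e-11 without BaP replicate 3). Pcna, the sliding clamp of DNA polymerases, kept more of its level in mature cells, at 423, 298 and 238 against 95.5, 80.9 and 94.2 CPM, a 3.54-fold difference. The member that did not pass was Rfc2, a clamp loader subunit, at 271, 269 and 160.2 against 278, 259.7 and 269.6 CPM, with a log2 fold change of -0.21 and of 0.01 without BaP replicate 3. Of 22 genes of the G1 phase, 12 rose and 3 fell. The cyclin E genes Ccne1 and Ccne2 help to start S phase. Ccne1 was at 17.4, 12.3 and 8.13 against 1.91, 0.501 and 0.562 CPM, with a log2 fold change of 3.75, or 4.49 without BM mature replicate 1, its highest mature library. Ccne2 was at 9.79, 8.96 and 5.62 against 0.636, 0.751 and 0.749 CPM, and neither gene overlapped between the groups. Ccnd3, a D-type cyclin gene, was at 307, 327 and 227 against 186, 209 and 165 CPM and differed by 1.54-fold. The CDK inhibitor gene Cdkn1b (p27) fell in BaPs, at 76.0, 93.4 and 113 against 144, 170.3 and 158 CPM (log2 fold change -0.74 ± 0.15 SE, adjusted p = 0.00116), and was chosen after its values were seen. BaPs had lower levels of most of these genes in replicate 3 than in replicates 1 and 2: the 64 mitosis genes summed to 4838, 3865 and 2858 CPM in BaPs and to 851, 786 and 612 CPM in BM mature basophils.

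Mitosis genes are known to share promoter elements, a CHR element with the core TTTGAA and CCAAT boxes, which bind the DREAM and NF-Y complexes, and replication genes an E2F site such as GGCGGGAA. These letters were searched on both strands of RefSeq promoter windows (GRCm38.p6, 250 bases before to 50 after each start), and none of the motifs contains another, although neighbouring matches can share bases. A window was found for 52 of the 62 mitosis genes that rose, in 56 windows, of which 71.4% held TTTGAA, 75.0% CCAAT and 60.7% both. Over all 32851 windows the shares were 17.9%, 37.4% and 6.95%, and over the windows of tested genes 13.8%, 38.3% and 5.65%. For the 58 windows of DNA replication genes that rose, TTTGAA was in 15.5%, CCAAT in 55.2% and GGCGGGAA in 15.5%. The share of GGCGGGAA was 2.19% of all windows, 3.86% of the windows of tested genes and 0% of the mitosis windows. A match describes the letters of a window and is not a binding site, and no test was made of these shares.

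The 250 bases before the start of 4 mitosis genes and of Uhrf1 are shown because these genes rose in BaPs and show how the elements are placed. Capitals mark matches of these motifs on either strand, so that some appear as their reverse complement, and, in Top2a, 1 match of the GATA motif AGATAA, which 11.2% of all windows held.
Top2a (chr11:99024190-99024439, minus strand): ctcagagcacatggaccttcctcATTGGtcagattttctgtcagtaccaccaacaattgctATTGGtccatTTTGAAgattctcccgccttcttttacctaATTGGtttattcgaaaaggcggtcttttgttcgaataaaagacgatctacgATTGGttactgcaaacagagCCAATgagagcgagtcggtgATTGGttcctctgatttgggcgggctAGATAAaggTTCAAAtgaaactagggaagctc
Mki67 (chr7:135716380-135716629, minus strand): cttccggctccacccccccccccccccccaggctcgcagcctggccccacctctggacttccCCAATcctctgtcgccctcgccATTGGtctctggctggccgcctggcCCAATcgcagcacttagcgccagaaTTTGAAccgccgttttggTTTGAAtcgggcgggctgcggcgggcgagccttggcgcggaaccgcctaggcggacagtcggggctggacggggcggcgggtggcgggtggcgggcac
Ncapg (chr5:45669675-45669924, plus strand): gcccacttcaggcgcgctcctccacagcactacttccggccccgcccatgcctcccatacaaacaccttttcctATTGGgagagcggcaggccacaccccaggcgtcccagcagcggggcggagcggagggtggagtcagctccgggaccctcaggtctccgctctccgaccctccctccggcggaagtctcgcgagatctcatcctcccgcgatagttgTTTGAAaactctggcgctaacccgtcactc
Aurka (chr2:172370571-172370820, minus strand): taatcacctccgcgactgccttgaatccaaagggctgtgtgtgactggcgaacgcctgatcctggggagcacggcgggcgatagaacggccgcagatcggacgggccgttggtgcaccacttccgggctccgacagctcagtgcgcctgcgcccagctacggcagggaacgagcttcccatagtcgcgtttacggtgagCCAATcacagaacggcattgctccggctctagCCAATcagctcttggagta
Uhrf1 (chr17:56303087-56303336, plus strand): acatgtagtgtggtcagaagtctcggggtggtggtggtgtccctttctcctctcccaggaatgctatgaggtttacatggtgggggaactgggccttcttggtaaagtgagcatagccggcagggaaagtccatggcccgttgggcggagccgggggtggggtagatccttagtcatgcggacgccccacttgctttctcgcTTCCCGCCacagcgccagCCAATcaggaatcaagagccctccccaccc
Top2a carries 6 CCAAT matches and 2 TTTGAA matches, the nearest TTTGAA match with its first base 23 bases before the start, and Mki67 carries 3 CCAAT and 2 TTTGAA matches. Ncapg has a TTTGAA match 30 bases before the start and a CCAAT match at 176 bases, and Aurka CCAAT matches at 51 and 19 bases. RefSeq gives Uhrf1 a pair of windows, and the one shown has a GGCGGGAA match at 48 bases and a CCAAT match at 30 bases, and no TTTGAA match, while the other has CCAAT matches at 150 and 107 bases and no match of the other motifs.

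Growth and biosynthesis genes were higher in BaPs as well. Of 56 genes of ribosome biogenesis 39 rose and none fell (median 1.05, and 0.98 without BaP replicate 3), and 44 passed with all 3 libraries. Rrs1, a factor of large subunit assembly, was at 24.1, 18.2 and 19.5 against 3.50, 4.01 and 3.74 CPM (log2 fold change 2.44 ± 0.30 SE, adjusted p = 2e-05, and 2.49 ± 0.31, adjusted p = 2.6e-06 without BaP replicate 3). Utp20, of the small subunit processome, was at 8.36, 9.90 and 12.2 against 2.23, 2.50 and 2.06 CPM, and neither gene overlapped between the groups. The genes of the abundant nucleolar proteins Npm1 and Ncl differed less. Npm1 was at 324, 287 and 388 against 205, 209 and 225 CPM, a 1.56-fold difference, and Ncl, nucleolin, was 1.62-fold higher in BaPs. BaP replicate 3 was the highest library for Utp20, Npm1 and Ncl, unlike the cell cycle genes. Of 51 nuclear genes of oxidative phosphorylation 38 rose and none fell, with a smaller median of 0.59, or 0.77 without BaP replicate 3. Uqcrq, a subunit of complex III, was at 132, 124 and 71.3 against 42.6, 31.5 and 23.2 CPM. Cycs, the cytochrome c gene, was at 68.1, 56.6 and 54.7 against 16.5, 17.8 and 19.8 CPM. Atp5b, of ATP synthase, was at 568, 549 and 431 against 309.7, 299 and 282 CPM. The 3 genes did not overlap between the groups, and their log2 fold changes were 1.76, 1.72 and 0.80. Cox4i1, a subunit of complex IV, did not pass, at 361, 348 and 392 against 373, 417 and 531 CPM (log2 fold change -0.27 ± 0.15 SE, adjusted p = 0.158), and was positive with library size alone (0.17).

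The 5 genes with the highest level in BaP replicate 3 among those higher only with that library included genes encoded by the mitochondrial genome. mt-Co1, of complex IV, was at 4649, 4766 and 7891 against 3897, 3932 and 4491 CPM (log2 fold change 0.49 ± 0.18 SE, adjusted p = 0.0387, and 0.21 ± 0.11, adjusted p = 0.135 without BaP replicate 3). mt-Atp6, of ATP synthase, was at 1513, 1431 and 2903 against 1256, 1190.1 and 1472 CPM (log2 fold change 0.58 ± 0.22 SE, adjusted p = 0.0414, and 0.18 ± 0.12, adjusted p = 0.198 without BaP replicate 3). BaP replicate 3 was the highest library for both, as it was for the share of mitochondrial reads given above. mt-Nd4, of complex I, and the predicted genes Gm10925 and Gm28439 had adjusted p of 0.0241, 0.0382 and 0.0250 with BaP replicate 3, and 0.0702, 0.169 and 0.0823 without it. None of the 5 passed without BM mature replicate 2 either.

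Cholesterol synthesis followed the growth genes, with 17 of 23 rising and 1 falling (median 1.39, and 1.39 without BaP replicate 3). Insig1, a sterol-responsive regulator, was at 16, 10.6 and 14.6 against 0.636, 1.0 and 1.68 CPM (log2 fold change 3.52 ± 0.35 SE, adjusted p = 3.6e-06, and 3.47 ± 0.39, adjusted p = 8.11e-07 without BaP replicate 3). Hsd17b7, an enzyme late in the pathway, was at 4.30, 5.42 and 3.68 against 0.318, 0 and 0.374 CPM, which is 79 reads over the 3 BaP libraries and 3 over the 3 BM mature libraries, a ratio of levels of 17.5 with a 95% counting interval of 5.78 to 86.8. The gene of the pathway's transcription factor, Srebf2, was slightly lower in BaPs at 60.2, 68.8 and 64.1 against 78.9, 79.6 and 82.6 CPM (log2 fold change -0.32 ± 0.10 SE, adjusted p = 0.0196), but passed neither without BaP replicate 1 (adjusted p = 0.0823) nor without BM mature replicate 3 (0.0591), and its sign turned with library size alone (0.11). Of 12 promoter windows of the genes that rose, 83.3% held CCAAT, against 37.4% of all windows.

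The window of Hsd17b7 is shown for its CCAAT matches, all read from the other strand and in capitals.
Hsd17b7 (chr1:169969206-169969455, minus strand): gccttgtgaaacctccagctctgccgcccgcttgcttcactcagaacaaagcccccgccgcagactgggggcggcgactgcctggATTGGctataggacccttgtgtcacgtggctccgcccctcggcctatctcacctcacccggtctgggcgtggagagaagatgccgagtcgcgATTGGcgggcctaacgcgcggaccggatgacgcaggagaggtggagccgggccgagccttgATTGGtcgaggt
The 3 matches begin 165, 73 and 12 bases before the start.

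Chemokine genes were much lower in BaPs, and none of 8 tested rose while 6 fell (median -1.99, and -2.79 without BaP replicate 3). Ccl6 was at 128, 142 and 332 CPM in BaPs against 3971, 3535 and 4079.6 CPM in BM mature basophils (log2 fold change -4.26 ± 0.30 SE, adjusted p = 2.1e-07, and -4.83 ± 0.13, adjusted p = 2.18e-14 without BaP replicate 3). Ccl9 was at 446, 558 and 432 against 4154, 3695 and 4126 CPM. Ccl3 was at 2738, 3088 and 2165 against 19186, 16270.2 and 19680.5 CPM, and Ccl4 was 7.89-fold lower in BaPs. The groups were separated by several fold for all 4, and the 3 BaP libraries were close to each other except for Ccl6, which was highest in BaP replicate 3. Summed over the 8 genes, BaPs had 6588, 7604 and 6979 CPM, pre-basophils 17665, 19739 and 18888 CPM and BM mature basophils 51462, 44194 and 53413 CPM.

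Cytokine genes mostly went the same way, with 8 of 12 falling and none rising (median -1.09, and -1.0 without BaP replicate 3). In the fits taken alone, 8 were lower and 2 higher without BaP replicate 3, and 5 were lower without BM mature replicate 1. Osm, for oncostatin M, was at 576, 706 and 506 against 3844, 4049 and 4146 CPM (log2 fold change -2.75 ± 0.19 SE, adjusted p = 1.96e-07, and -2.64 ± 0.18, adjusted p = 1.89e-09 without BaP replicate 3). Csf1, for macrophage colony-stimulating factor, was at 1089.5, 895 and 724 against 4418, 2833 and 4644 CPM (log2 fold change -2.14 ± 0.21 SE, adjusted p = 3.28e-06). Lif, a cytokine gene of the same family as Osm, was at 5.49, 0.943 and 3.29 against 17.8, 7.51 and 24.9 CPM and had its lowest value in replicate 2 of each group. The type 2 cytokine genes were lower in BaPs too. Il4 was at 72.4, 45.3 and 29.7 against 123, 108 and 132 CPM (log2 fold change -1.32 ± 0.26 SE, adjusted p = 0.000904, and -1.03 ± 0.20, adjusted p = 0.000302 without BaP replicate 3), without overlap between the groups. Il13 was at 9.79, 4.48 and 4.36 against 24.8, 11.8 and 14.8 CPM (log2 fold change -1.49 ± 0.47 SE, adjusted p = 0.0192), a call that was lost without BaP replicate 2 (adjusted p = 0.0595) and without BM mature replicate 1 (0.0971). Il6, which pre-basophils had at 3718, 2614 and 3275 CPM, was at 1781, 1454 and 816 against 2873, 1614 and 2607 CPM with overlap between the groups (log2 fold change -0.81 ± 0.26 SE, adjusted p = 0.0220), and did not pass without BM mature replicate 1 (0.110) or 3 (0.0706).

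Many receptors for inflammatory signals were also lower in BaPs. Of 31 genes of cytokine and innate receptors, 16 fell in BaPs and 3 rose (median -0.48, and -1.06 without BaP replicate 3, or -0.01 with library size alone). Relative to all genes the median was -0.53, and -0.49 with library size alone. C5ar1, the receptor gene for complement fragment C5a, was at 11.5, 6.37 and 12.5 against 122, 86.4 and 124 CPM (log2 fold change -3.42 ± 0.29 SE, adjusted p = 8.99e-07). C3ar1, that for C3a, was at 21.0, 15.8 and 22.4 against 186, 193 and 198 CPM (log2 fold change -3.27 ± 0.14 SE, adjusted p = 4.91e-09). Both were far lower in each BaP library than in any BM mature library. Csf2rb, the signalling chain shared by the receptors for IL-3, IL-5 and GM-CSF, was at 408, 381 and 249 against 1273, 1247 and 1181 CPM (log2 fold change -1.84 ± 0.15 SE, adjusted p = 8.14e-07, and -1.63 ± 0.10, adjusted p = 3.13e-10 without BaP replicate 3). Il18rap, of the IL-18 receptor, was at 324, 335 and 311 against 1012, 981 and 1030.0 CPM, a 3.12-fold difference. None of these genes overlapped between the groups, and their levels in the 3 BaP libraries were within 2-fold of each other.

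IgE receptor signalling showed a smaller and less uniform difference. Of 33 genes, 18 fell in BaPs and 1 rose, and the median was -0.39 (-0.72 without BaP replicate 3). With library size alone it was 0.04, but relative to all genes it was -0.44 with either scaling. In the fit of all 12 libraries, TMM gave 18 genes lower and 4 higher, and library size alone 8 lower and 8 higher. Gab2, an adaptor of the receptor's PI3-kinase branch, was at 88.4, 99.0 and 73.8 against 251, 277 and 265 CPM (log2 fold change -1.61 ± 0.12 SE, adjusted p = 4.74e-07, and -1.49 ± 0.11, adjusted p = 5.89e-09 without BaP replicate 3). Prkcd, the protein kinase C delta gene, was at 149, 169 and 118 against 357, 387 and 378 CPM (log2 fold change -1.37 ± 0.12 SE, adjusted p = 1.61e-06), and neither gene overlapped between the groups. Fcer1g, the signalling chain of the receptor, was at 1179.6, 1228 and 712 against 1779, 1579 and 1578 CPM (log2 fold change -0.66 ± 0.17 SE, adjusted p = 0.00665, and -0.44 ± 0.11, adjusted p = 0.00313 without BaP replicate 3) and did not pass with library size alone (adjusted p = 0.142). The other receptor chains, Fcer1a above and the beta chain gene Ms4a2, chosen after its values were seen, at 954, 950.3 and 413 against 560.1, 615 and 529 CPM, were higher in BaP replicates 1 and 2 than in any BM mature library and lower in BaP replicate 3. Of 3 tested IgG receptor genes none passed in both fits. Fcgr3, an activating low-affinity receptor, was at 370.0, 419 and 178 against 454, 496 and 405 CPM, and Fcgr2b, the inhibitory one, at 197, 185 and 100.0 against 223, 232 and 208 CPM. Neither passed in either fit, but with a replicate block adjusted p was 0.0245 and 0.0262. Leaving out BaP replicate 2 also brought both under 0.05 (0.0246 and 0.0466), as did leaving out BaP replicate 1 for Fcgr2b (0.0214).

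Among 25 paired and inhibitory surface receptors, 10 fell and 6 rose (median -0.22, and 0.21 with library size alone). Relative to all genes the median was -0.27 with either scaling. Cd7, a surface protein better known on T and NK cells, had one of the largest falls, at 19.8, 20.3 and 213 against 1044, 1035 and 1097 CPM. Its log2 fold change was -3.61 ± 0.67 SE (adjusted p = 0.000601), and -5.71 ± 0.16, adjusted p = 2.18e-14 without BaP replicate 3, in which Cd7 was far higher than in the other BaP libraries. Lilrb4a and Lilr4b encode leukocyte immunoglobulin-like receptors of 1 family, and whether they share reads was not given in the sources used here. Lilr4b was at 983, 911 and 864 against 7909, 6144 and 7499 CPM. Lilrb4a was at 493, 450.3 and 405 against 3045, 2529 and 3015 CPM, and both fell by several fold without overlap. Cd24a, a glycoprotein of immature leukocytes, went the other way at 159.8, 157 and 135 against 7.96, 8.01 and 9.17 CPM (log2 fold change 4.15 ± 0.22 SE, adjusted p = 2.41e-08, and 4.23 ± 0.21, adjusted p = 3.07e-11 without BaP replicate 3).

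Adhesion and migration genes were mostly lower in BaPs: 25 of 37 fell and 2 rose (median -0.98, and -0.94 without BaP replicate 3). Cxcr2, the receptor for CXC chemokines such as CXCL2, was at 26.0, 33.2 and 34.9 against 158, 223 and 184 CPM (log2 fold change -2.58 ± 0.16 SE, adjusted p = 7.65e-08, and -2.66 ± 0.17, adjusted p = 5.09e-10 without BaP replicate 3). Hrh4, the histamine H4 receptor gene, was at 3.82, 6.60 and 4.45 against 19.4, 25 and 25.5 CPM (log2 fold change -2.25 ± 0.22 SE, adjusted p = 2.75e-06). Cxcr4, the receptor that holds leukocytes in the BM, went the opposite way without passing in the fit of all libraries, at 168, 118 and 113 against 96.7, 57.6 and 110.1 CPM (log2 fold change 0.59 ± 0.27 SE, adjusted p = 0.0863), and passed without BaP replicate 3 (0.71 ± 0.26, adjusted p = 0.0284). The tetraspanin gene Cd53 fell, at 538, 474 and 356 against 912, 784 and 941 CPM. Cd63, a granule membrane tetraspanin used as a degranulation marker, was at 1538, 1267 and 652 against 1181, 1113 and 1232 CPM and did not pass (adjusted p = 0.927), with 0.27 ± 0.11, adjusted p = 0.0433 without BaP replicate 3.

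Of 23 genes of the exocytosis machinery 13 fell and 1 rose. With all 12 libraries, 14 were lower and 1 higher with TMM, against 6 lower and 5 higher with library size alone. The median of -0.48 became -0.07 with library size alone. Relative to all genes the median was -0.53, and -0.55 with library size alone. Sytl3, a Rab27 effector gene, was at 63.1, 70.5 and 114 against 449, 439.9 and 591 CPM (log2 fold change -2.57 ± 0.21 SE, adjusted p = 6.61e-07, and -2.88 ± 0.16, adjusted p = 1.53e-10 without BaP replicate 3). Cplx2, for the SNARE regulator complexin 2, was at 7.17, 4.48 and 19.8 against 52.5, 27.8 and 37.3 CPM, with a log2 fold change of -1.78, or -2.72 without BaP replicate 3, its highest BaP library. The syntaxin gene Stx3 was at 244, 248 and 127 against 318, 362 and 329 CPM (adjusted p = 0.00871, and 0.126 with library size alone). Hdc, the enzyme that makes histamine, was at 1018, 647 and 495 against 2810.4, 1476 and 2452 CPM (log2 fold change -1.64 ± 0.29 SE, adjusted p = 0.000378, and -1.42 ± 0.26, adjusted p = 0.000162 without BaP replicate 3). Its level was lowest in replicate 2 of the BM mature libraries and still above every BaP library. Ptgs2, the inducible cyclooxygenase gene, was at 250.1, 206 and 150.0 against 1009, 563 and 844 CPM. Alox5ap, needed for leukotriene synthesis, was at 1009, 980.2 and 517 against 1759.9, 1713 and 1745 CPM. The list of 16 histamine and lipid mediator genes as a whole had 3 rising and 5 falling. With all 12 libraries, 4 were higher and 5 lower with TMM, against 9 higher and 5 lower with library size alone.

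Immediate early genes, which cells switch on within minutes of a stimulus, were mostly lower in BaPs. Of 44 such genes and their feedback inhibitors, 32 fell and none rose (median -1.29, and -1.51 without BaP replicate 3). Fosb, for a subunit of the AP-1 transcription factor, was at 8702, 7451 and 5004 against 31950.5, 20519.6 and 27817 CPM. Jun, for another subunit, was at 3799, 4968 and 3498 against 16156, 16228 and 17019 CPM. The BaP libraries were all far below the BM mature libraries for both. Zfp36, tristetraprolin, which destabilises cytokine mRNAs, was at 1729.7, 2251 and 2127 against 16169.9, 13499 and 16417 CPM (log2 fold change -2.92 ± 0.15 SE, adjusted p = 1.35e-08, and -2.94 ± 0.14, adjusted p = 2.7e-11 without BaP replicate 3). Ier5, an immediate early response gene, was at 135, 173 and 249 against 989.8, 1072 and 1183 CPM (log2 fold change -2.54 ± 0.22 SE, adjusted p = 1.18e-06), again without overlap. Summed over the 44 genes, BaPs had 54558, 52765 and 39943 CPM, pre-basophils 81209.9, 77665 and 89527 CPM, BM mature basophils 181718, 140803 and 180203 CPM and spleen mature basophils 149644, 155216 and 176966 CPM.

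**Figure D4:**
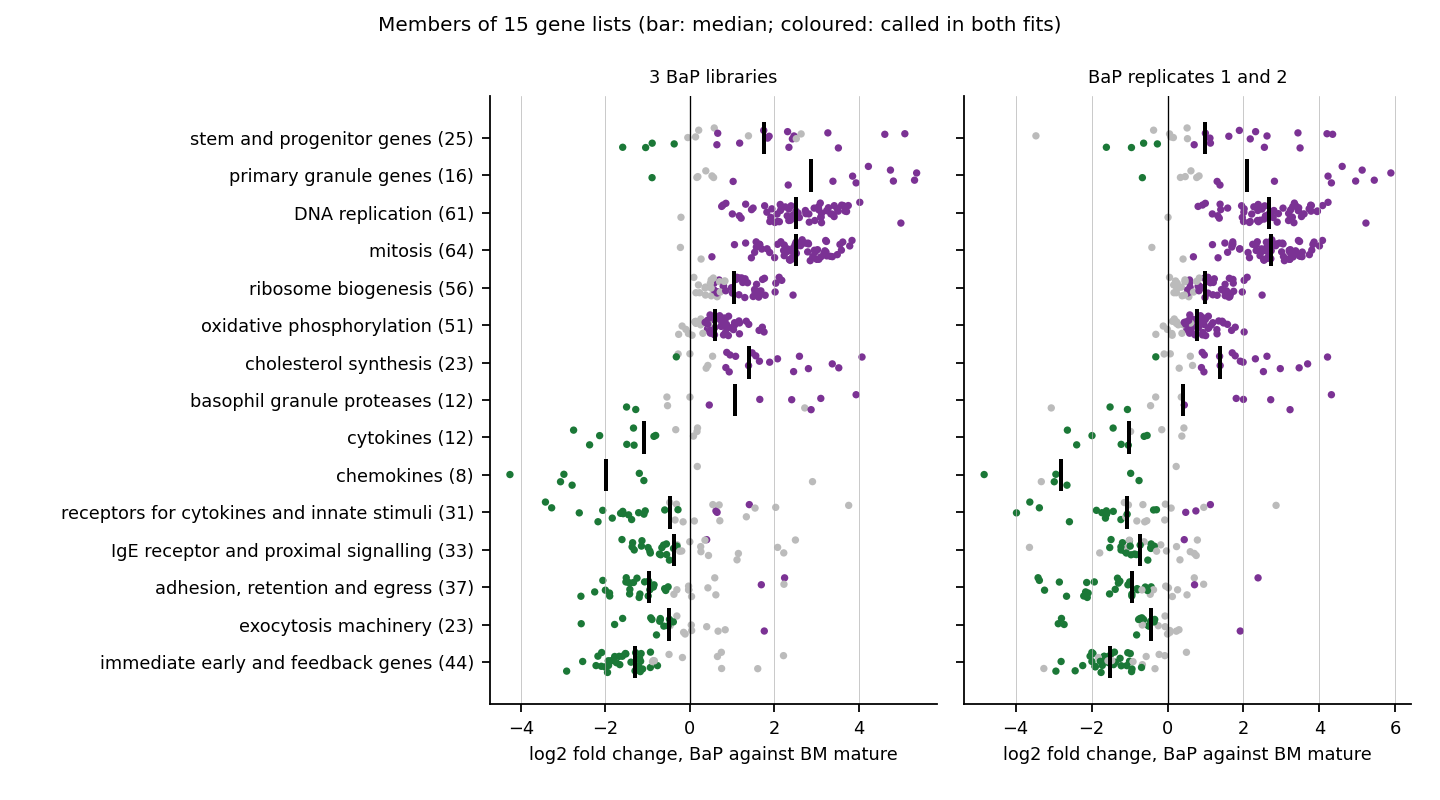
Log2 fold change (BaP over BM mature) of each tested member of 15 gene lists, with 3 BaP libraries (left) and with BaP replicates 1 and 2 (right); the bar is the median, purple points rose and green points fell in BaPs in both fits, and grey points did not pass in both. Replication and mitosis genes lie almost wholly to the right of 0, chemokine and immediate early genes mostly to the left, and the median of IgE receptor signalling is left of 0 in both panels.

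Outside these lists, the genes with the largest changes by the rule were of mixed function. Slc6a9, the glycine transporter gene GlyT1, was at 0.239, 0.943 and 1.65 CPM in BaPs against 23.6, 24.3 and 22.3 CPM in BM mature basophils (log2 fold change -4.36 ± 0.31 SE, adjusted p = 2.63e-07, and -5.23 ± 0.36, adjusted p = 1.55e-09 without BaP replicate 3), and thus nearly absent at the BaP end. Cldn1, for the tight junction protein claudin-1, was at 0, 0.707 and 1.74 against 22.6, 14.5 and 27.1 CPM, with a log2 fold change of -4.35, or -5.82 without BaP replicate 3. Wdr95 was at 2.63, 2.83 and 11.5 against 116, 100.7 and 105 CPM, with -4.04 and -5.28. BaP replicates 1 and 2 were near the floor for Slc6a9 and Cldn1, where the precision of a fold change is low. BaP replicate 3 was above its floor of 0.290 CPM for both genes. Mapk12, the p38 gamma kinase gene, was at 3.58, 4.24 and 6.39 against 70.7, 70.4 and 72.1 CPM. L1cam, for a neural cell adhesion molecule, was at 13.9, 12.3 and 16.6 against 152, 145 and 153 CPM. Neither gene overlapped between the groups. Nxpe4, Dnase2b, for a DNA-degrading lysosomal enzyme, and B630019A10Rik had log2 fold changes of -3.96, -3.35 and -3.48. Among genes that rose, Psat1, of serine synthesis, was at 48.7, 42.7 and 31 against 2.23, 2.0 and 2.81 CPM (log2 fold change 4.07 ± 0.32 SE, adjusted p = 4.77e-07, and 4.25 ± 0.28, adjusted p = 1.17e-09 without BaP replicate 3). Sdf2l1, a cofactor of chaperones in the endoplasmic reticulum (ER), was at 397, 312 and 127 against 21.0, 19.3 and 11 CPM. Nt5dc2 and 4930519L02Rik had log2 fold changes of 4.07 and 4.14, and like Sdf2l1 were lowest of the BaP libraries in replicate 3. Each of these genes had non-overlapping groups, which the rule required.

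The pre-basophil libraries split the span into its steps, which share the pre-basophil samples and are given side by side. For mitosis genes the median log2 difference was -0.10 for BaP minus pre-basophil (0.08 without BaP replicate 3) and 2.80 for pre-basophil minus BM mature. DNA replication genes gave 0.44 for BaP minus pre-basophil (0.61 without BaP replicate 3) and 1.97 for pre-basophil minus BM mature. For both lists the larger difference was that of the second step. Ribosome biogenesis genes had the larger difference in the first step, with 0.67 for BaP minus pre-basophil (0.57 without BaP replicate 3) and 0.35 for pre-basophil minus BM mature. Cytokine genes did too, with -1.01 for BaP minus pre-basophil (-0.82 without BaP replicate 3) and -0.23 for pre-basophil minus BM mature, whereas chemokine genes differed at both, with -1.19 for BaP minus pre-basophil (-1.32 without BaP replicate 3) and -1.36 for pre-basophil minus BM mature. Immediate early genes gave -0.65 for BaP minus pre-basophil (-0.58 without BaP replicate 3) and -0.84 for pre-basophil minus BM mature. At the level of single genes, Slc6a9 was at 5.35 ± 1.21 CPM (mean ± SD, n = 3) in pre-basophils, Ccl6 at 592 ± 31.9 CPM and Cxcr2 at 67.2 ± 9.28 CPM, each between the ends. Sox4 was at 26.5 ± 9.02 CPM and Mpo at 508 ± 100.2 CPM there, also between the ends, while Mcpt8 was at 11892 ± 872 CPM and Mki67 at 707 ± 79.7 CPM, near the BaP levels. Differences between these steps were not tested.

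**Figure D5:**
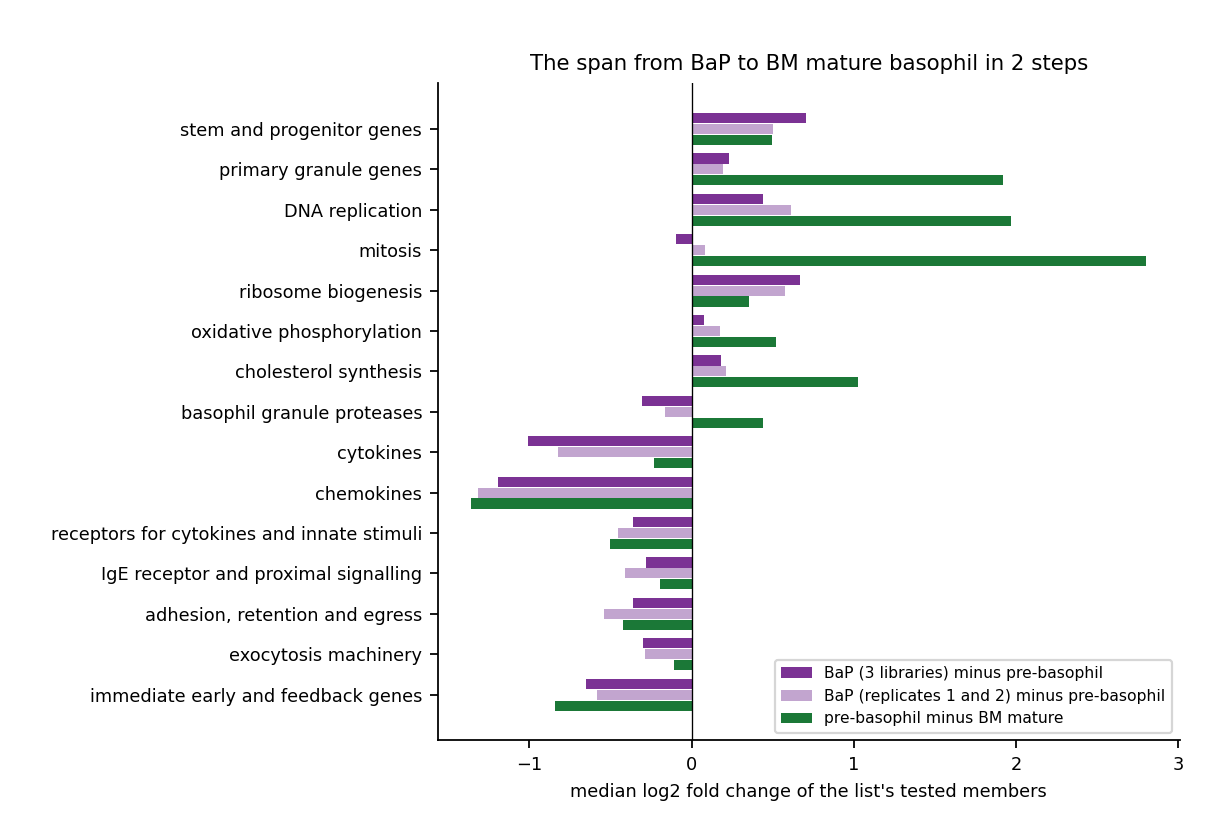
Median log2 fold change of the tested members of 15 gene lists in the steps BaP minus pre-basophil, with 3 BaP libraries (dark purple) and with BaP replicates 1 and 2 (light purple), and pre-basophil minus BM mature (green). Mitosis and DNA replication genes have most of their difference in the second step, while cytokine and ribosome biogenesis genes have more of it in the first.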

How the data were processed

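Per the study's methods, the authors lysed sorted cells, amplified the cDNA by the TAS-Seq workflow, fragmented it with the NEBNext Ultra II FS kit, sequenced it on a NovaSeq instrument, trimmed reads with Cutadapt 3.4, mapped them to reference RNA with Bowtie2 2.4.2 and deposited raw read counts per gene. The methods name GRCm38 release 101 and the submitters' processing notes GRCm39, so no coordinates of the table are given, and the promoters are RefSeq's on GRCm38.p6. The sources used here do not give the handling of strand or of reads with several targets, so values of overlapping genes and near-identical copies are uncertain. Molecular identifiers are not mentioned, so floors and intervals cover counting error only. Every column of the table belonged to a sample. The 12 libraries were fitted in 1 edgeR 4.0.16 quasi-likelihood model (R 4.3.3) with a coefficient per group after filterByExpr and TMM, and again without BaP replicate 3, with Benjamini-Hochberg adjustment over all tested genes, and genes were called at an adjusted p under 0.05. The study's package TCC was not used, and its scaling scheme (DEGES) was rebuilt as an alternative beside DESeq2 1.42.0 and limma 3.58.1. Scripts were tested on simulated data. Members and lists were chosen with earlier results of these data known. Named genes were the markers and sorted proteins, genes the study names, the 12 largest changes in each direction with at least 20 CPM in the higher group, the same call in both fits and no overlap, up to 4 genes per list (those with the largest calls and the most reads), and the 5 most abundant genes higher only with BaP replicate 3. Some genes that this rule gives are not reported here. Same-numbered BaP and BM mature libraries deviated together from their group means, with correlations across genes of 0.152, 0.133 and 0.212, all above 0.1. Correlations between differently numbered libraries ran from -0.188 to 0.0469. The labels do not say that equal numbers mark a pair, and whether they do was not tested. A replicate block was therefore fitted only as an alternative. No pair of replicates agreed within sampling noise, with a chi-square per degree of freedom of 4.16 to 35.0 over genes with at least 20 reads. The 34 lists are of 25 pathways and 9 other cell types, and stromal and endothelial markers had no tested gene.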

Additional observations from a re-analysis of the deposited data

How the results depend on the processing

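Of 6785 called genes, leaving out 1 library at a time gave 5708 to 7549 called, 3220 to 4035 higher and 2488 to 3514 lower in BaPs, and the other scalings, filters and tools gave 5580 (only the 6 libraries) to 7672 (library size alone). DESeq2 called 6166 and limma-voom 6532. A test against a 2-fold change (glmTreat) called 1462 genes, 975 higher and 487 lower, by its own construction. Library size alone called 6363 higher and 1309 lower, and without BaP replicate 3 5731 higher, for which the cause was not tested. DEGES scaling made 62.3% of calls higher. With the replicate block 7069 genes were called, and 7600 with the block and without BaP replicate 3, and among named genes the block changed no call beyond those of Klf2, Fcgr3, Fcgr2b, H2-K1 and Plac8. Fits that combine leaving out BaP replicate 3 with another choice were added after the data were seen. The sign turned for 6 of the 124 named genes. Cd63 had log2 fold changes of 0.36 with library size alone, 0.0774 with DEGES, 0.27 without BaP replicate 3, 0.00306 without BM mature replicate 3 (from -0.29 to 0.27 over all fits that left out 1 library), 0.29 with the block and without BaP replicate 3, 0.59 with library size alone and without it, and 0.21 in the 6 libraries without it. Library size alone gave 0.17 for Cox4i1, 0.19 for Rfc2 and 0.11 for Srebf2, and without BaP replicate 3 it gave 0.0255, 0.35 and 0.0245 for the same genes, with 0.13 for Fcgr2b and 0.14 for Fcgr3. Rfc2 was at 0.0136 without BaP replicate 3 (-0.33 without BaP replicate 1) and 0.0538 with the block and without BaP replicate 3. The cause of these turns was not tested. Of 124 named genes 78 kept direction and call in every setting run. Depth limits genes at or near the floor of 3 reads, such as Elane and Hoxa9 in BM mature basophils and Slc6a9 in BaP replicates 1 and 2.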

Other observations

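Glycolysis genes went both ways, with 5 of 20 rising and 9 falling in BaPs, and their median log2 fold change of -0.09 became 0.32 with library size alone. Relative to all genes the median was -0.13, and -0.16 with library size alone. The glucose transporter gene Slc2a3 was at 168, 166 and 151 against 721, 424 and 726 CPM and the lactate exporter gene Slc16a3 at 30.3, 34.9 and 24.2 against 80.2, 93.4 and 77.7 CPM, both lower in every BaP library. The enzyme gene Gpi1 was at 442, 469 and 309 against 690.3, 675 and 715 CPM (log2 fold change -0.77 ± 0.14 SE, adjusted p = 0.000403, and -0.60 ± 0.09, adjusted p = 4.42e-05 without BaP replicate 3), and Aldoa, for aldolase A, at 386, 419 and 284 against 864, 832 and 820.5 CPM (log2 fold change -1.21 ± 0.13 SE, adjusted p = 7.92e-06). Of 13 heat shock genes, 5 rose and 2 fell. The co-chaperone gene Bag3 rose, at 11.2, 14.4 and 10.7 against 3.50, 4.01 and 2.81 CPM, and Dnajb1, for a stress-inducible co-chaperone, fell, at 589.8, 477 and 361 against 1241, 1122 and 1481 CPM. The constitutive Hsp90ab1 also rose, at 1169, 1029 and 1056 against 515, 470.0 and 564 CPM (log2 fold change 1.07 ± 0.15 SE, adjusted p = 6.73e-05), and the ER chaperone gene Hspa5, at 6926, 4970.4 and 2429 against 3899, 3571 and 3287 CPM, passed without BaP replicate 3 (adjusted p = 0.00105) and not with it (0.241). In the fits taken alone 8 heat shock genes were higher without BaP replicate 3 and 9 with a replicate block.

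Survival and death genes were even, with 7 of 26 rising and 7 falling (26.9% each), against 23.0% and 17.8% over all genes. Their median of -0.14 became 0.27 with library size alone and 0.04 without BaP replicate 2. Relative to all genes the median was -0.19, and -0.21 with library size alone. The death-promoting gene Bik had 46 reads over the 3 BaP libraries and 3 over the 3 BM mature libraries, a ratio of levels of 10.2 with a 95% counting interval of 3.28 to 51.3. The survival genes Bcl2 and Mcl1 went apart, with Bcl2 at 77.6, 95.7 and 150.1 against 24.5, 18.5 and 22.3 CPM (log2 fold change 2.32 ± 0.23 SE, adjusted p = 3.42e-06) and Mcl1 at 314, 239.8 and 293 against 669.9, 479.7 and 1593 CPM (log2 fold change -1.70 ± 0.43 SE, adjusted p = 0.00590). Of 17 genes of MHC class I presentation 4 rose and 3 fell, shares near the 23.0% and 17.8% over all genes. Their median of 0.06 turned to -0.27 without BaP replicate 3. The peptide-loading genes Calr and Pdia3, which also serve as ER chaperones, had log2 fold changes of 3.19 and 1.87, while the class I heavy chain gene H2-D1 was at 1403, 1178 and 1570.2 against 3214, 2588 and 3547 CPM (log2 fold change -1.17 ± 0.15 SE, adjusted p = 2.28e-05) and H2-K1 at 886, 758 and 1603 against 1404, 1378 and 1794 CPM (adjusted p = 0.0853, and 3.37e-05 without BaP replicate 3). Of 34 lysosome and vesicle acidification genes 8 rose and 8 fell (23.5% each), against 23.0% and 17.8% over all genes. Their median of 0.09 turned to -0.06 without BaP replicate 1. Over the fits that left out 1 library, the number higher ran from 5 without BaP replicate 1 to 14 without BaP replicate 3. In the fit of all 12 libraries, TMM gave 9 higher and 9 lower, and library size alone 21 higher and 6 lower. Atp6v0b, of the vesicular proton pump, was at 123, 122 and 112 against 382, 348 and 359 CPM and Npc2, a sterol carrier of lysosomes, at 205, 206 and 162 against 319, 312 and 322 CPM.

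For markers of other blood cells the medians differed widely with and without BaP replicate 3. Of 11 tested B cell markers 1 rose and 0 fell in both fits, with a median of 0.92 with BaP replicate 3 and -2.20 without it. Of 20 tested T and NK cell markers 0 rose and 2 fell in both fits, with a median of 2.67 with BaP replicate 3 and -2.76 without it. Of 9 tested erythroid markers 4 rose and 0 fell in both fits, with a median of 2.13 with BaP replicate 3 and 0.19 without it. Of 13 tested megakaryocyte and platelet markers 1 rose and 1 fell in both fits, with a median of 1.21 with BaP replicate 3 and -1.92 without it. For T and NK cell markers, 17 were higher in BaPs without BaP replicate 1 and 16 were lower without BaP replicate 3. Among 15 monocyte and dendritic cell markers 5 rose and 3 fell. Among 3 mast cell markers 1 rose and 1 fell. Among 6 eosinophil markers 1 rose and 2 fell.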
